A study of Mus musculus with 6 samples.

Results

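Transcripts of the complement system were followed in MLL-AF10 leukemia cells of the mouse, which express a fusion of the histone methyltransferase MLL with AF10, after vehicle or an IKK inhibitor. The genes were 9, chosen by symbol for their place in the cascade: Cfb, Cfp, C2, C3, C1qa, C1qb, C1qc, C5ar1 and C3ar1. These genes and the further lists below were chosen with earlier results of these data known. Their counts of calls are therefore descriptive. Each of 8 had a single probe set annotated to it alone, among 19847 genes tested, and C3 is not analysed here. Total RNA came from 3 samples of cells given vehicle and 3 samples of cells given 0.5 µM IKK inhibitor, all of the same line and grown in medium with serum and WEHI-conditioned supplement. Each sample was read on its own whole-transcript array. The sources used here do not give the compound's name, the length of treatment, the number of clones behind the line or whether the 3 samples of a group were separate cultures. The p-values therefore cover the spread between these samples alone, and that spread may be technical.

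Complement is a protease cascade of plasma and tissue fluid that tags surfaces for uptake by phagocytes. The classical pathway starts when C1q binds immunoglobulin or other surface ligands and leads through the protease C2. In the alternative pathway factor B joins deposited C3 in a protease complex, held together by properdin, that cleaves more C3. The small fragments C3a and C5a, called anaphylatoxins, act on G protein-coupled receptors of myeloid cells. Most plasma complement is made by the liver, and monocytes and macrophages make several components locally, C1q among them. IKK kinases act upstream of NF-kB transcription factors.

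With the IKK inhibitor, the transcripts of factor B (Cfb) and of both anaphylatoxin receptors (C3ar1 and C5ar1) rose, that of properdin (Cfp) rose slightly, and those of C2 and the C1q chains did not pass the test. Cfb was 4.98-fold higher, C3ar1 3.37-fold, C5ar1 1.97-fold and Cfp 1.17-fold. In a fit over the whole table with limma, a gene was called when its p-value, adjusted by Benjamini-Hochberg over the 19847 genes, was under 0.05. By that rule 4 of the 8 genes were called higher and none was called lower, and 4 did not pass. Over all genes tested 13.9% were called in either direction, 7.1% higher and 6.75% lower. Among genes brighter than the median gene 39.7% were called, and 4 of the 5 complement genes tested there. As the genes were chosen with earlier results of these data known, these shares give no test of the group. The median log2 fold change of the 8 genes was 0.15, beside 0.01 over all genes tested. The arrays of the groups did not overlap for 4 of the 8 genes, all with the inhibitor arrays above, an arrangement found in either direction for 32.9% of all genes, in 15.7% with the inhibitor arrays above and in 17.2% below. In RNA from whole cultures, a change in how many cells make a transcript and a change in RNA per cell cannot be told apart.

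**Figure D1:**
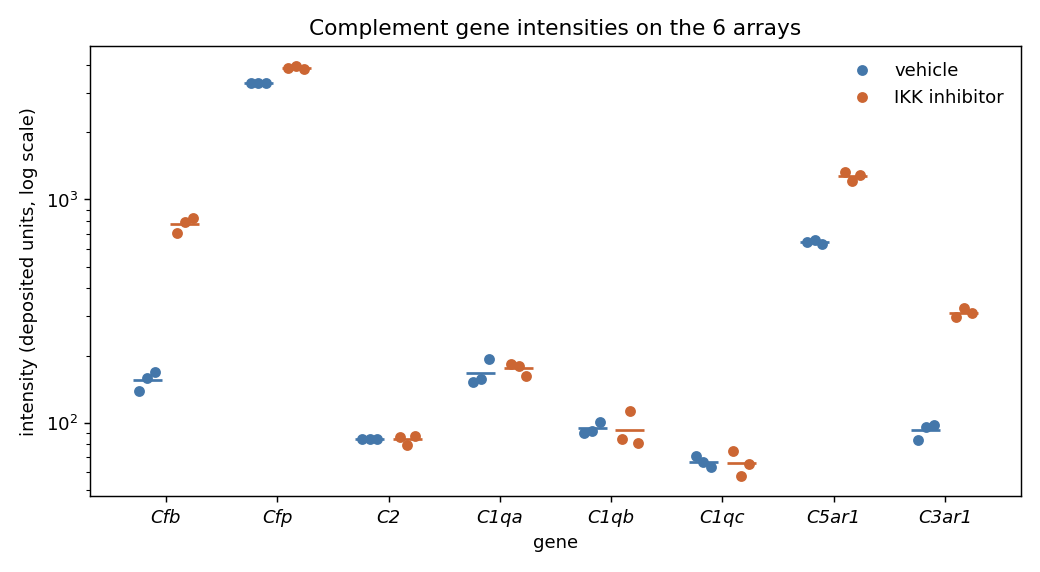
Intensity of 8 complement genes on each array, on a log axis in deposited units. Points are single arrays, 3 per group, and bars are group means. The inhibitor arrays lie above all vehicle arrays for Cfb, Cfp, C5ar1 and C3ar1, and the groups overlap for C2, C1qa, C1qb and C1qc. Heights of different genes are not comparable, since probe sets differ in brightness.

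Among the genes of the alternative pathway, Cfb encodes factor B, the zymogen of the serine protease that cleaves C3. Its intensity, in the linear units deposited, was 139, 159 and 169 on the vehicle arrays and 708, 790 and 829 on the inhibitor arrays. The lowest inhibitor array was thus far above the highest vehicle array. Group means were 156 ± 15.4 and 776 ± 61.7 (SD, n = 3 each). The log2 fold change was 2.31 ± 0.09 (SE, 95% interval 2.09 to 2.54), with an adjusted p of 5.55e-05 by limma. Only 0.0202% of the genes tested had a larger rise, which placed Cfb at rank 5.

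Cfp encodes properdin, the plasma protein that holds the alternative pathway convertase together and that is made by leukocytes. It was bright on every array, with intensities of 3333, 3307 and 3315 with vehicle and 3894, 3944 and 3856 with the inhibitor. The groups did not overlap, and the spread within each was small beside the gap between them. The log2 fold change was 0.23 ± 0.04 (SE, 95% interval 0.13 to 0.34), with an adjusted p of 0.0174 by limma. A rise of this size was near the limit of what 6 arrays resolved. The call was lost without vehicle array 1, 2 or 3 (adjusted p = 0.0569, 0.0724 and 0.0726), without inhibitor array 1 (0.0691) and with arrays centred on their medians (0.122). It was not called at an adjusted p under 0.01, which 4.96% of all genes met, whereas the log2 fold change stayed between 0.19 and 0.24 in all 19 alternatives.

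C2 encodes the protease of the classical and lectin pathways that corresponds to factor B and shares its domain plan. Its intensity was 84.9, 84.7 and 85.1 on the vehicle arrays and 86.0, 79.3 and 87.5 on the inhibitor arrays. The groups overlapped, and the vehicle arrays lay within those given the inhibitor. The log2 fold change was -0.01 (95% interval -0.14 to 0.12, adjusted p = 0.932 by limma), so that inhibitor levels above 1.09 times or below 0.907 times the vehicle level lay outside the interval.

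Cfb and C2 are next to each other on chromosome 17, in the class III part of the MHC. Relative to C2, Cfb was higher by 2.33 on the log2 scale with the inhibitor than with vehicle. Set against the vehicle mean, the log2 ratio of Cfb to C2 was -0.16, 0.04 and 0.12 on the vehicle arrays and 2.17, 2.44 and 2.37 on the inhibitor arrays. The ratios of the groups did not overlap, and the exact permutation test over arrays gave p = 0.1 (2-sided, n = 3 each; 0.1 adjusted over the 2 pairs compared), the smallest value that 3 against 3 arrays allow. On either side of Cfb and C2 the 3 nearest named protein-coding genes, by the order of the RefSeq genes of GRCm38.p6, were Nelfe, Skiv2l and Dxo, and Zbtb12, Ehmt2 and Slc44a4. None of these 6 passed the test. Their log2 fold changes ran from -0.21 for Slc44a4 to 0.01 for Dxo.

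**Figure D2:**
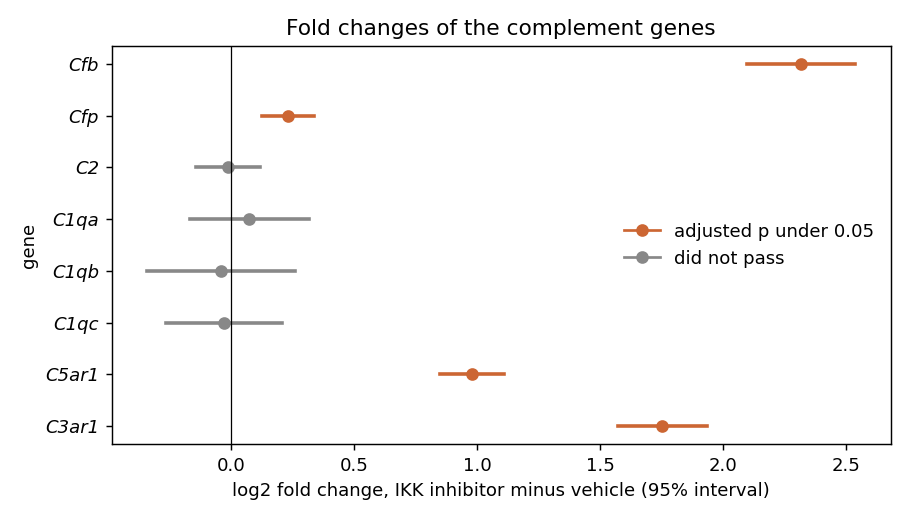
Log2 fold change of 8 complement genes, IKK inhibitor minus vehicle, from limma over 3 arrays per group. Points are estimates and lines 95% intervals, coloured where the adjusted p was under 0.05. The intervals of Cfb, C3ar1, C5ar1 and Cfp lie above 0 and do not overlap one another, and those of C2, C1qa, C1qb and C1qc include 0.

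C1qa, C1qb and C1qc encode the chains of C1q, the recognition molecule of the classical pathway and a product typical of tissue macrophages. C1qa had intensities of 152, 157 and 193 with vehicle and 184, 180 and 162 with the inhibitor. C1qb had 90.4, 92.2 and 101 with vehicle and 84.8, 112 and 81.4 with the inhibitor. C1qc had 71.2, 66.6 and 63.2 with vehicle and 74.5, 57.9 and 65.3 with the inhibitor. For each chain the groups overlapped. The log2 fold changes were 0.07 for C1qa (95% interval -0.17 to 0.32), -0.04 for C1qb (-0.34 to 0.26) and -0.03 for C1qc (-0.26 to 0.21), with adjusted p of 0.717, 0.887 and 0.899 by limma. The intervals leave room for rises of up to 1.25-fold, 1.20-fold and 1.15-fold. The sign turned without vehicle array 3, inhibitor array 1 or inhibitor array 3 for C1qb, and without vehicle array 1 or inhibitor array 2 for C1qc, and the value for C1qa was 0.0091 without vehicle array 1 and 0.18 without vehicle array 3.

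The table holds no detection calls, so whether C2 and C1q transcripts were present above background was not judged. The 24 measured markers of T cells, B cells, hepatocytes, fibroblasts, endothelium and erythroid cells, cell types not named for this culture, had intensities between 21.2 and 289. All values of C2 and the C1q chains fell inside that range, as did the vehicle values of Cfb and C3ar1. With the inhibitor, every value of Cfb and C3ar1 was above it. Probe sets differ in how brightly they report a transcript, so this range is only a guide.

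The C1q genes lie together on chromosome 4, where the nearest named neighbours measured were Lactbl1 and Tex46 on one side and Epha8, Zbtb40 and Wnt4 on the other, and Ephb2 is not analysed here. None passed. Wnt4 had mean intensities of 380 ± 17.5 and 515 ± 96.8 (SD, n = 3 each) and an adjusted p of 0.0971 by limma.

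C5ar1 encodes the receptor for C5a that draws phagocytes to sites of complement activation. Its intensity was 648, 657 and 631 on the vehicle arrays and 1326, 1205 and 1288 on the inhibitor arrays. The groups were well separated. Their means were 646 ± 13.4 and 1273 ± 62.0 (SD, n = 3 each). The log2 fold change came to 0.98 ± 0.06 (SE, 95% interval 0.85 to 1.11), with an adjusted p of 0.000157 by limma.

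C3ar1 encodes the receptor for C3a. It had intensities of 84.1, 95.7 and 98.1 with vehicle and 296, 328 and 310.0 with the inhibitor, again with no overlap. Means were 92.6 ± 7.50 and 312 ± 15.9 (SD, n = 3 each). The log2 fold change was 1.75 ± 0.08 (SE, 95% interval 1.57 to 1.93), with an adjusted p of 7.02e-05 by limma, and 0.131% of the genes tested had a larger rise. C5ar2, which encodes a second C5a receptor that does not couple to G proteins, did not pass, at a log2 fold change of 0.16 (adjusted p = 0.310).

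The log2 fold change was larger for C3ar1 than for C5ar1. The log2 ratio of C5ar1 to C3ar1, set against its vehicle mean, was 0.14, -0.02 and -0.12 on the vehicle arrays and -0.64, -0.93 and -0.75 on the inhibitor arrays. The difference of the log2 fold changes was -0.77, with an exact permutation p of 0.1 over arrays (2-sided, n = 3 each; 0.1 adjusted over the 2 pairs), the smallest possible.

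Promoter sequences were read for 6 of the 9 genes (C3, Cfp, C1qb, C1qc, C5ar1 and C3ar1) from RefSeq's promoters of GRCm38.p6, which run from 250 bases before to 50 bases after the start of a transcript. They were searched on both strands for motifs of factors known for complement genes: GGGNNTTNC for NF-kB, GAAANNGAA for the interferon-stimulated response element, TTCNNNGAA for the interferon gamma activated site, TTGCNNAA for C/EBP, TGANTCA for AP-1 and GAGGAAGT for PU.1. The promoters of both anaphylatoxin receptors, whose transcripts rose, are shown with that of C1qc, whose transcript did not pass. All 3 are on the minus strand and are written 5′ to 3′, with matches in capitals. They lie at chr6:122856108-122856407 for C3ar1, chr7:16259289-16259588 for C5ar1 and chr4:136892865-136893164 for C1qc.
C3ar1: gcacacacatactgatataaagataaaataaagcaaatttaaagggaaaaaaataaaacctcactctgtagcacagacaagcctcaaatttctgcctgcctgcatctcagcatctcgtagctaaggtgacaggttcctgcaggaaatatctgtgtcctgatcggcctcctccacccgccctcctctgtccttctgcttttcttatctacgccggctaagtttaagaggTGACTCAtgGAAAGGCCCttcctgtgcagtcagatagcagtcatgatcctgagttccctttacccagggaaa
C5ar1: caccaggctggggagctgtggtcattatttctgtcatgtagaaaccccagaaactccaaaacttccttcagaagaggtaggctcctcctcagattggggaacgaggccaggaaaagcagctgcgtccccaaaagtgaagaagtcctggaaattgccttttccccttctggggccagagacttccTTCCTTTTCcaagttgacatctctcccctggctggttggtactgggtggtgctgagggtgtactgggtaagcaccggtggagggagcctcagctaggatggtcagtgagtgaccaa
C1qc: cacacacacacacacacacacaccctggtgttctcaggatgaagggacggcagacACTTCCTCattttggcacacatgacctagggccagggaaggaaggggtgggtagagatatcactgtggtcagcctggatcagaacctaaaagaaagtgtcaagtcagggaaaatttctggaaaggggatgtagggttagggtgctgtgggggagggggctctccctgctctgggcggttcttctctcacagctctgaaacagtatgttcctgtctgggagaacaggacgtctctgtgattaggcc

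In C3ar1 the capitals mark an AP-1 motif at bases -22 to -16 before the transcript start, and an NF-kB motif on the opposite strand at bases -13 to -5. These motifs do not overlap each other. Of 32851 promoters of 300 bases in the RefSeq table, 7.81% held the AP-1 motif and 15.2% the NF-kB motif. In C5ar1 the capitals mark an interferon-stimulated response element motif on the opposite strand at bases -66 to -58, held by 8.56% of promoters. The letters of this motif and of the NF-kB motif were set after longer forms had been searched. Under those longer forms C5ar1 held no match. In C1qc they mark a PU.1 motif on the opposite strand at bases -195 to -188, held by 3.20%. The Cfp and C1qb windows held none of the 6 motifs, and that of C3 held a C/EBP motif, found in 10.8% of promoters. The interferon gamma activated site motif, held by 8.30% of promoters, was in none of the 6 windows. A match says only that these letters are present.

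The other genes of the cascade, a list also chosen with earlier results of these data known, mostly did not pass the test. Of 46 measured, 10 were higher, 2 were lower and 34 did not pass, with a median log2 fold change of 0.07, beside 13.9% called over all genes. Without vehicle array 2 or vehicle array 3 the count of calls was 7, beside 5.97% and 6.14% of all genes called.

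The 10 further receptors and binding proteins held the most calls, with 5 higher and 1 lower. Over all genes 13.9% were called, and 39.7% when only genes brighter than the median gene were tested. Several of the called receptor genes were bright, and the part of brightness in this count was not tested. Itgam (CD11b) and Itgb2 (CD18) together form complement receptor 3, which binds inactivated C3b on targets for uptake. Itgam rose on the log2 scale by 0.69 ± 0.05, from 1447 to 2334, and Itgb2 by 0.42 ± 0.04, from 2534 to 3391 (SE). Itgax, whose product pairs with CD18 as complement receptor 4, rose by 0.41 ± 0.07, a call lost without vehicle array 2 (adjusted p = 0.0613) or inhibitor array 3 (0.0536). Lrp1, a large endocytic receptor, rose by 0.95 ± 0.11, and Cd93, once described as a C1q receptor of phagocytes, by 0.40 ± 0.06. C1qbp, a mainly mitochondrial protein that can bind C1q heads, fell by 0.28 on the log2 scale, from 1984 ± 6.39 to 1635 ± 36.4 (SD, n = 3 each), and narrowly missed the threshold without vehicle array 3 (adjusted p = 0.0506). Cr2, Vsig4 and Calr did not pass, with log2 fold changes of 0.09, -0.03 and -0.06.

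Of 14 regulators measured, 2 were higher, 1 was lower and 11 did not pass. Cd59a encodes an anchored membrane protein that blocks the membrane attack complex, and its log2 level rose by 0.52 ± 0.07, with means of 288 and 413. Its near copy Cd59b had a log2 fold change of 0.37 and was called with all arrays, but with 1 array left out it was called only without inhibitor array 3 (adjusted p = 0.0757 to 0.126 in the others), and the probe sets of such copies may share signal. Cd55 encodes decay accelerating factor, which takes apart C3 convertases. It was dim, at 27.6, 32.8 and 28.5 with vehicle and 22.8, 20.7 and 23.3 with the inhibitor. Its log2 fold change was -0.41, and its call was lost without vehicle array 2 or 3 and without inhibitor array 1 or 3 (adjusted p = 0.0501 to 0.0648). Cr1l (Crry), the main convertase regulator of mouse blood cells, had a log2 fold change of 0.02 (95% interval -0.11 to 0.15).

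Of 15 classical and lectin pathway genes, 3 were higher and 12 did not pass. Colec12, a membrane-bound collectin that acts as a scavenger receptor, rose on the log2 scale by 1.03 ± 0.09, from 85.0 to 174. C1rl, a protease related to C1r, was called at 0.48, but not without vehicle array 1, 2 or 3 or inhibitor array 1 (adjusted p = 0.0539 to 0.0907). C1s1, a C1s protease gene with a near copy, C1s2, was dim, from 28.8 to 35.3, and with 1 array left out it was called only without inhibitor array 3 (adjusted p = 0.0611 to 0.146 in the others). It was also not called with quantile normalization (0.113). C4b, the next component after C1s, did not pass at a log2 fold change of 0.08, and as C4a is a near copy its value is uncertain. None of 7 genes of the terminal pathway, which builds the membrane attack complex, passed, with log2 fold changes between -0.21 for C8g and 0.21 for C7. Cfd, C1rb and Cpb2 are not analysed here.

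**Figure D3:**
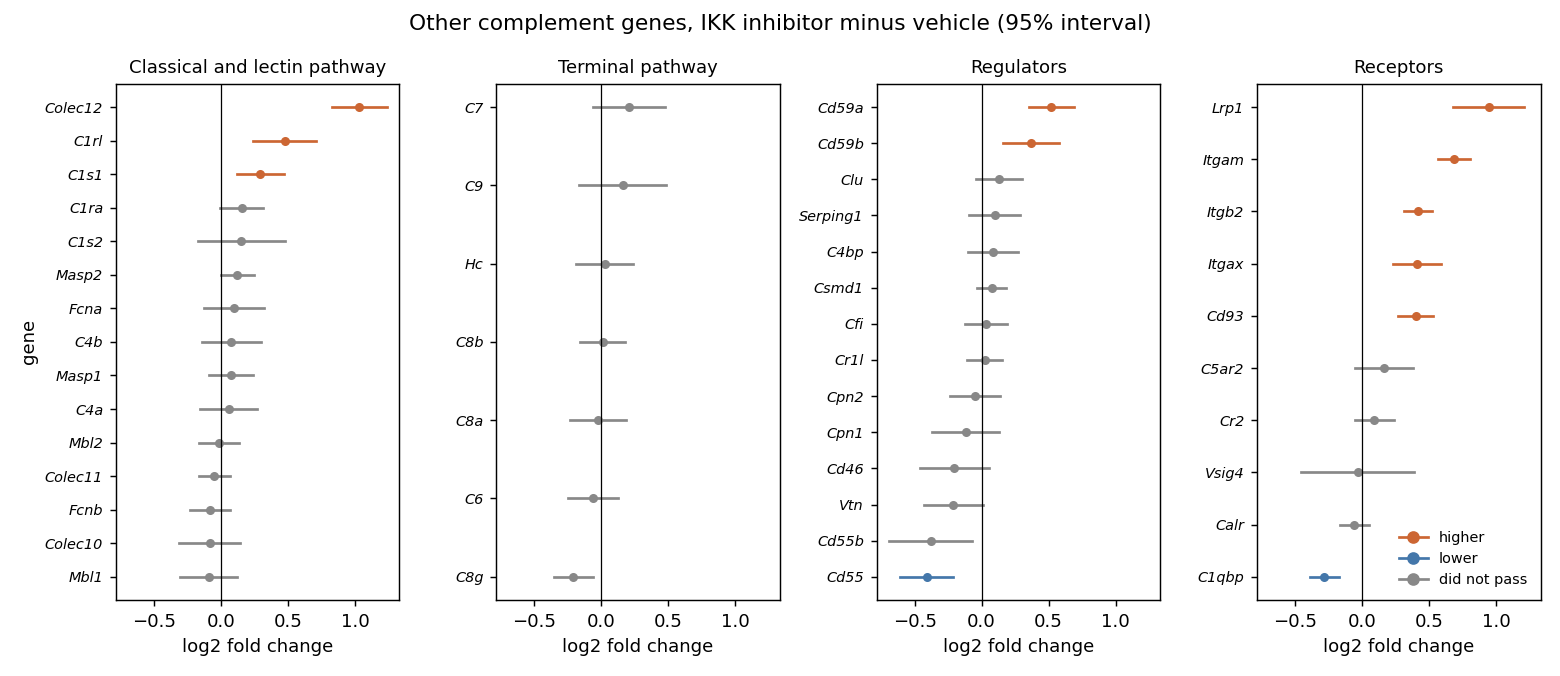
Log2 fold change of 46 other complement genes by role, IKK inhibitor minus vehicle, with 95% intervals from limma over 3 arrays per group. Colours mark genes called higher or lower. Of 10 receptors 5 are higher, led by Lrp1 (0.95) and Itgam (0.69), and 1 is lower, and no gene of the terminal pathway is coloured. Over all genes tested 13.9% were called.

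Several cytokines and factors known to act on complement genes were read in the same fit. This list too was chosen with earlier results of these data known. Of 17 measured, 8 were higher, 1 was lower and 8 did not pass, beside 13.9% called over all genes. Il1a and Il1b, which encode interleukin-1, an inducer of factor B and C3 in many cells, had log2 fold changes of 1.96 and 1.08 and Tnf one of 0.42, and these 3 were called higher. Irf8, a factor of the monocyte lineage, was called at 0.68 (adjusted p = 0.00076). Of the NF-kB genes, Nfkb2 and Relb were called higher at 0.49 and 0.29, and Rela did not pass at 0.04. Il6 and Cebpd were called higher at 0.34 and 0.25. Il6 was dim, at 18.15, 21.08 and 21.98 with vehicle and 25.81, 25.48 and 26.1 with the inhibitor. With an intensity trend and robust prior in limma it was not called (adjusted p = 0.108). With 1 array left out, Nfkb2 stayed called in all 6 fits, and Relb, Il6 and Cebpd each in 2. The interferon gamma gene Ifng and its target Irf1 did not pass, at log2 fold changes of 0.0023 and 0.0018. The interferon gamma receptor gene Ifngr1 was called lower at -0.19 (adjusted p = 0.0465), but not when any 1 of the 6 arrays was left out (0.070 to 0.144). Cebpb, a C3 activator, had 0.29 and did not pass (adjusted p = 0.0764). No relation of these genes to the complement genes was tested.

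Genes with the most similar profile were found for each of the 4 called complement genes, with predicted genes left out. They had the smallest root mean square distance between log2 profiles over the 6 arrays, each profile less its own vehicle mean. Over 2 groups such nearness largely reflects a similar log2 fold change, 1.75 for both C3ar1 and Chil1. Shared regulation was not tested. Nearest to Cfb were Treml4 (distance 0.112), Tlr8 (0.131) and Bhlhe41 (0.171). Nearest to C3ar1 were Chil1 (0.0396), Plekhg1 (0.0402) and Cd200r4 (0.0501), and to C5ar1 Il1f9 (0.0246), Cybb (0.0460) and Tlr2 (0.0472). Slc2a1, Cst7 and Zmiz1 were nearest to Cfp (0.0124 to 0.0161).

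Markers of myeloid and other cell types, in lists chosen with earlier results of these data known, were read in the same arrays. The label of leukemia cells was checked on 8 myeloid leukemia and progenitor markers, of which 1 was higher, 2 were lower and 5 did not pass. Vehicle means were 1725 for Ptprc, 2661 for Spi1, 1935 for Hoxa9, 1076 for Meis1, 577 for Cebpa, 762 for Mpo and 4890.5 for Elane, whereas Flt3, at 75.8, lay inside the range of the 24 markers of other cell types. The granule enzyme gene Mpo fell from 762 to 124, by 2.62 on the log2 scale. Elane, another granule enzyme gene, was called lower at -0.24, but not without vehicle array 1, 2 or 3 or inhibitor array 1 or 3 (adjusted p = 0.0511 to 0.0853). Ptprc was called higher at 0.19, but not when any 1 of the 6 arrays was left out (0.0817 to 0.165). Of 13 monocyte and macrophage markers measured, none of them a complement gene, 9 were higher and none was lower, and their summed intensity was 9477 to 9853 with vehicle and 17164 to 18246 with the inhibitor. Of 8 neutrophil markers 7 were higher and Ltf did not pass, with sums of 4837 to 4964 and 8003 to 8683. Over all genes tested 13.9% were called in either direction and 7.1% were called higher. When only genes brighter than the median gene were tested, 39.7% were called in either direction. Several of the called markers were bright, and the part of brightness in these counts was not tested. Of the 24 markers of T cells, B cells, hepatocytes, fibroblasts, endothelium and erythroid cells none passed, with sums of 2286 to 2485 and 2144 to 2437. Of 6 dendritic cell markers 1 was higher, Itgax, with sums of 515 to 569 and 575 to 622. The macrophage markers Cd163, Fcgr1, Cx3cr1 and Ccr2 did not pass. Whether the cells matured, and whether that had a part in the values of Cfb, Cfp and the anaphylatoxin receptors, was not tested. Array medians lay between 112 and 124, and correlations of log2 values across genes were 0.993 to 0.997 within groups and 0.988 to 0.991 between them.

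**Figure D4:**
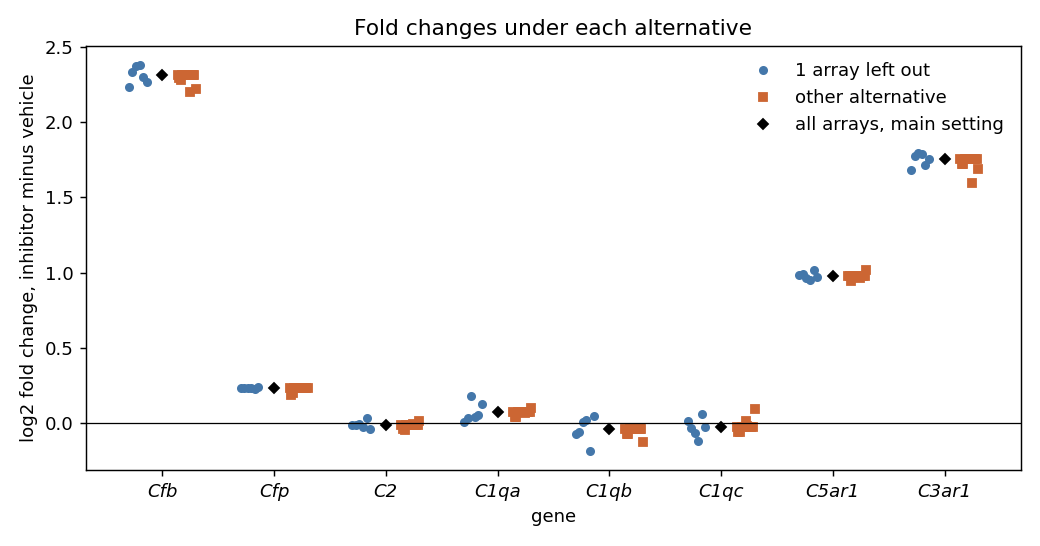
Log2 fold change of 8 complement genes, IKK inhibitor minus vehicle, under each processing alternative. Circles leave out 1 array each, squares are the other alternatives and diamonds the value with all arrays. Cfb stays between 2.20 and 2.38, C3ar1 between 1.59 and 1.80 and C5ar1 between 0.95 and 1.02, whereas C2, C1qb and C1qc fall on both sides of 0.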

How the data were processed

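The authors deposited a table of 35512 probe sets as linear intensity. Per the submitters' processing notes it came from Affymetrix Expression Console, with version, summarization and normalization not given in the sources used here. Values ran from 0.71 to 8186, and no further scaling was applied. Values under 16 (5.94%) were set to 16 before log2, so fold changes of genes with such values can be understated. The lowest value was 57.9 among the 8 complement genes and 20.7 among the 46 others, so this floor changed none of them. The platform annotation gave 21789 probe sets 1 symbol, updated through Entrez numbers, 1621 several and 12102 none; a gene's brightest probe set was used, and 91 genes at that floor throughout were left out. No complement gene studied shared its values with another row.

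Groups came from the treatment labels. The comparison of inhibitor with vehicle used limma 3.58.1 (R 4.3.3; 2-sided, no covariates, Benjamini-Hochberg over 19847 genes). SE and 95% intervals are the fit's. The code was tested on simulated data. The alternatives were applied to the called leukemia markers after the data were seen. The number of arrays limits the precision.

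Named genes were the complement genes studied, other complement genes past the threshold or needed for a role, neighbouring genes, the 3 most alike profiles and known inducers. Members and lists were chosen with earlier results of these data known. Motif letters were set after longer forms of the NF-kB and interferon-stimulated response element motifs had been searched, under which C5ar1 held no match. Alternatives were a replicate block, quantile normalization, median centring, dim-gene filters, other floors, log2 of intensity plus 16, other probe set rules, a trended robust prior, array weights, other thresholds and leaving out each array.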

Additional observations from a re-analysis of the deposited data

How the results depend on the processing

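Cfb, C3ar1 and C5ar1 were called higher in all 19 alternatives of each. The count of complement genes called was 3 or 4 in every alternative, the change being Cfp, which was also not called at an adjusted p under 0.01. Over all genes 4.96% to 39.7% were called in these alternatives. C2 and the C1q genes passed in no alternative that tested them. Without 1 array, the log2 fold change ran from -0.0389 to 0.0319 for C2, from 0.0091 (without vehicle array 1) to 0.182 (without vehicle array 3, adjusted p = 0.230) for C1qa, from -0.186 to 0.0469 for C1qb and from -0.121 to 0.0607 for C1qc. With array weights C2 had 0.0101 and C1qc 0.0934, and the cause was not tested. A floor of 64 raised C1qc on vehicle array 3 (63.2) and inhibitor array 2 (57.9), and its log2 fold change became 0.0131. Of the other complement genes, 7 to 10 were called when 1 array was left out, and 6 at an adjusted p under 0.01. Over all genes, 5.97% to 14.2% were called with 1 array left out, and 4.96% at an adjusted p under 0.01. With log2 of intensity plus 16, the difference of log2 fold changes between C5ar1 and C3ar1 was -0.63, since adding 16 compresses the dimmer gene more. Without 1 array it ran from -0.84 to -0.70, and that of Cfb and C2 from 2.25 to 2.41.

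Samples share only replicate numbers: deviations of same-numbered arrays correlated at 0.24, 0.13 and -0.10 across genes, and 3 of the 6 arrays correlated best with their own number. With a replicate block 3 complement genes and 8 of the other complement genes were called, against 4 and 12 without it, and Cfp had an adjusted p of 0.0595 by limma. Over all genes 8.46% were called with the block and 13.9% without it. No scaling moved the median of all genes by over 0.1. The table gives no detection calls, so signal over background limits what can be said of C2, the C1q genes and the vehicle levels of Cfb and C3ar1.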
